A study of Mus musculus with 6 samples.

Results

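The transcripts of 10 cytosolic heat shock and chaperone genes were measured by RNA sequencing in the infarct area of mouse hearts 48 h after ischemia/reperfusion (I/R). The genes were chosen by name, with earlier results of these data known. All 10 were found among the 36047 genes to which the sequenced transcripts belonged. They comprise the HSP70 genes Hspa1a, Hspa1b and Hspa8, the HSP90 gene Hsp90aa1, the co-chaperone genes Dnajb1 and Bag3, and the small heat shock protein genes Hspb1, Cryab, Hspb6 and Hspb7. There were 3 libraries from mice given the Porcupine inhibitor LGK-974 and 3 from mice given the DMSO vehicle. All were C57BL6 mice, 12 weeks old per the labels, and all had the left anterior descending coronary artery occluded and then reopened. LGK-974 was given by oral gavage directly after surgery at 3 mg/kg and then daily, and the controls received the DMSO vehicle in the same citrate buffer. Porcupine, an enzyme of the endoplasmic reticulum, adds the fatty acid without which Wnt proteins are not secreted. The mice were female according to the methods of the study. There was no group without I/R, so each value is from injured tissue. The inhibitor acted on the whole animal, and the tissue is a mixture of surviving and dying cardiomyocytes, fibroblasts, endothelial cells and infiltrating leukocytes.

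Heat shock proteins hold unfolded proteins in solution and help them to refold. When proteins unfold, as in ischemia, the transcription factor HSF1 is released, binds heat shock elements before the inducible genes and raises their transcription. HSP70 binds unfolded stretches, J-domain proteins such as DNAJB1 deliver clients to it and stimulate its ATPase, and BAG3 releases the nucleotide and links HSP70 to the small heat shock proteins and to autophagy. HSP90 completes the folding of kinases and receptors. The small heat shock proteins need no ATP, and Cryab (alpha B-crystallin), Hspb6 (Hsp20) and Hspb7 (cvHsp) are known as abundant chaperones of heart muscle, where they bind sarcomere and cytoskeleton proteins.

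The sequences before the starts of these genes are shown because they differ in the short elements that HSF1 recognises. Promoter sequences of RefSeq (GRCm38.p6) were matched by symbol for Hspa1a, Hspa1b, Hspb1, Hspb6, Hspb7, Dnajb1 and Bag3, and none was matched for Hspa8, Hsp90aa1 or Cryab. In the 250 bases before each start, the element of 3 alternating units (GAANNTTC followed directly by NNGAA, or TTCNNGAA followed directly by NNTTC, each the other's reverse complement, so that both strands are covered) had no match in any of the 9 windows of these 7 genes, and 0.466% of all 32851 promoter windows held one. The element of 2 units (GAANNTTC or TTCNNGAA, each its own reverse complement, and contained in the longer form) was found before Hspa1a, Hspa1b and Hspb1 and before 1 of the 2 starts of Hspb6, against 12.8% of all windows. The windows are chr17:34972157-34972406 for Hspa1a and chr17:34959239-34959488 for Hspa1b (both on the minus strand), chr5:135887669-135887918 for Hspb1, chr7:30552290-30552539 and chr7:30553051-30553267 for the upstream and the downstream start of Hspb6, and chr4:141420529-141420778 for Hspb7 (all on the plus strand), written 5′ to 3′ with the matches in capitals. The downstream window of Hspb6 was searched up to position 30553300. It is shown only up to the annotated start of its coding transcript, 30553268.
Hspa1a: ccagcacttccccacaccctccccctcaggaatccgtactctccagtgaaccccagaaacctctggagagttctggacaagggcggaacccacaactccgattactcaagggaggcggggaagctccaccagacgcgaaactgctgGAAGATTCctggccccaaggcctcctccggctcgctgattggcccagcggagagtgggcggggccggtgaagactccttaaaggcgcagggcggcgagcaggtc
Hspa1b: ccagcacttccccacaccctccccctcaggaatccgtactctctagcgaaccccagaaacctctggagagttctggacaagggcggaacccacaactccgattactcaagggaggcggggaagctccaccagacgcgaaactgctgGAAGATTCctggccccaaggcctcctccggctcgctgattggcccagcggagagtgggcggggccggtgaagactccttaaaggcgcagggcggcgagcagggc
Hspb1: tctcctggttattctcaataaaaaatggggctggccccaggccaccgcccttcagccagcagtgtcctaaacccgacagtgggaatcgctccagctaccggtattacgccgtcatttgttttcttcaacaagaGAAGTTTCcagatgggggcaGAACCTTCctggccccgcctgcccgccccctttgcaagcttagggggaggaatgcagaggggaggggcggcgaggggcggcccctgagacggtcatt
Hspb6, upstream start: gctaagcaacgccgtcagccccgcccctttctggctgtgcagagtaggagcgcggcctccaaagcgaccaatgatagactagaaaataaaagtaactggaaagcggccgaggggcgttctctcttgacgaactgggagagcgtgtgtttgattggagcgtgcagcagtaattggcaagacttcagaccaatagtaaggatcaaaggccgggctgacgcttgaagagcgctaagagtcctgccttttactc
Hspb6, downstream start: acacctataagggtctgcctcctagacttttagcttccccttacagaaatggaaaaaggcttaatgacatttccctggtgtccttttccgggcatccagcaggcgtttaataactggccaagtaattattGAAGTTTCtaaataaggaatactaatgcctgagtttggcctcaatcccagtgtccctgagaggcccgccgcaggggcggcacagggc
Hspb7: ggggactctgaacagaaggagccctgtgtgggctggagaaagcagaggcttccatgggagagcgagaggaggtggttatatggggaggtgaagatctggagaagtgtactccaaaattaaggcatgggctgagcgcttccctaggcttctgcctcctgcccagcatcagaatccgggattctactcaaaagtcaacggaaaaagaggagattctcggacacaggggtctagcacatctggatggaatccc
The windows of Hspa1a and Hspa1b were identical at 247 of 250 bases, and in both the single match began 104 bases before the start. In Hspb1, matches began 117 and 97 bases before the start. The windows of Hspb7, Dnajb1 and Bag3 held no match. Of the 2 windows of Dnajb1, chr8:83608298-83608547 lies after the annotated start of its coding transcript Dnajb1-201 (83608193). The bases just after the starts used for Dnajb1 and Bag3 were in 0 of their annotated transcripts. Only exact matches were sought, and bases further upstream were not searched. A match describes the letters only.

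The libraries held 41579787 to 80398211 estimated counts, of which mitochondrial genes took 28.2 to 53.7%. Values are given as CPM (the share of a library's counts, on the same total for every library) scaled with edgeR's TMM factors, which corrects for library size and composition. DMSO replicate 1 stood apart from the other libraries. Its correlations of log2 CPM with them were 0.878 to 0.944, against 0.961 to 0.987 among the other 5, and 98.1% of 2028 olfactory, vomeronasal, taste and trace amine receptor genes had counts in it, against 47.8 to 79.1% elsewhere. Each log2 ratio of the 10 genes is therefore also given without this library. The defining markers of heart muscle were high in every library, with 44554 to 63419 CPM summed over 15 cardiomyocyte markers under LGK-974 and 51270 to 70764 CPM under DMSO.

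The 10 genes were tested together with all others by edgeR's quasi-likelihood test on the 20094 genes that reached 10 counts in 3 or more libraries, with Benjamini-Hochberg adjustment over all of them. Its log2 fold change, also called log2 ratio or difference here, is that of LGK-974 over DMSO. All 10 passed this filter, and each would have passed it on the DMSO libraries alone. By edgeR's test 0 of the 10 genes had an adjusted p-value under 0.05, as did 0 (0%) of all tested genes. With p-values left unadjusted, 2 of the 10 were under 0.05 and higher with LGK-974 (6.26% of all tested genes) and 0 lower (7.18% of all). DESeq2, the program of the study, called 1 of the 10 higher with LGK-974 (0.852% of all genes with an adjusted p-value) and 0 lower (0.373%), and limma-voom with sample quality weights called 0 (0.224% in either direction). With DMSO replicate 1 left out, edgeR called 0 of the 10 and 2 of all genes. In 5 of the 10 genes every LGK-974 library lay above every DMSO library, which was so for 10.7% of all tested genes and for 17.1% of the 10878 genes with a mean of at least 5 CPM. In 0 of the 10 did every LGK-974 library lie below (7.27% of all tested genes). A positive log2 fold change was found for 8 of the 10, against 40.5% of all tested genes and 55.3% of those of at least 5 CPM. The median of the 10 was 0.30, against −0.13 over all tested genes and 0.041 over the genes of at least 5 CPM.

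**Figure D1:**
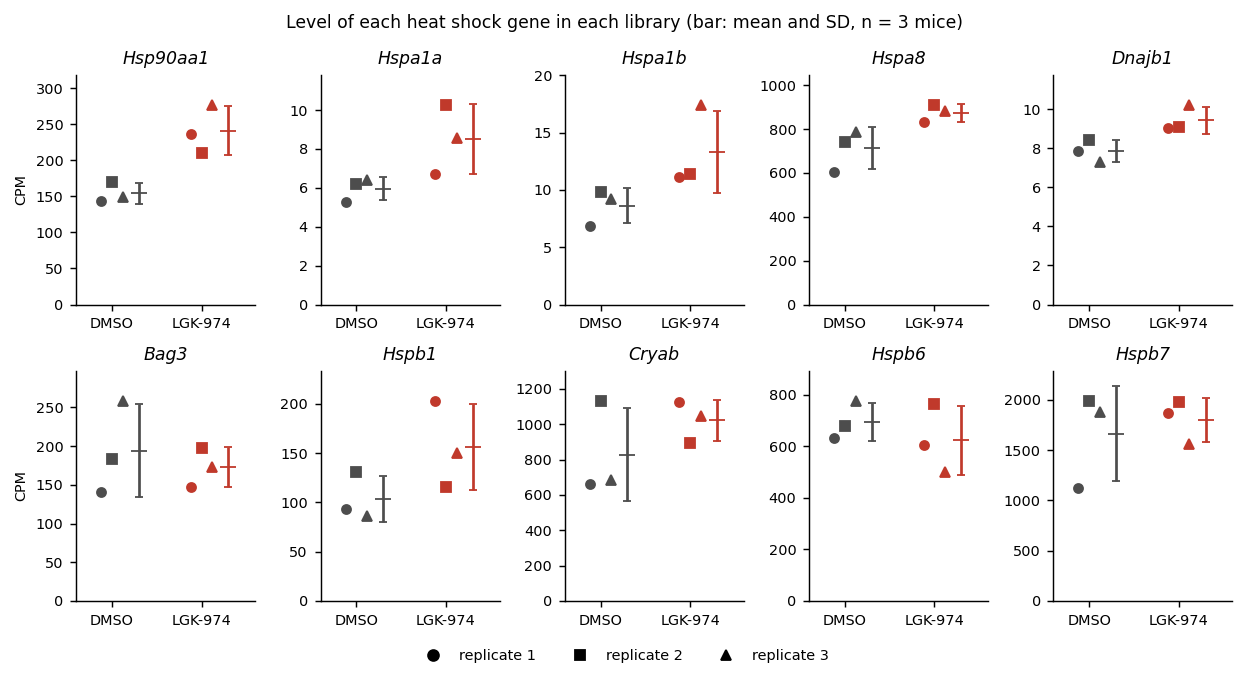
CPM of each of the 10 genes (y axis, from 0) in the 3 DMSO (grey) and 3 LGK-974 (red) libraries, with symbols for the replicate numbers and a bar for mean and SD. The groups are separated for Hsp90aa1, Hspa1a, Hspa1b, Hspa8 and Dnajb1 and overlap for Bag3 and the 4 small heat shock protein genes.

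The separated genes were those of HSP90, HSP70 and their J-domain partner. Hsp90aa1, the inducible form of HSP90, lies on chromosome 12 from 110690605 to 110702728 (GRCm38, minus strand). It was measured at 236, 209.6 and 277 CPM in LGK-974 replicates 1, 2 and 3 and at 143, 170.5 and 149 CPM in DMSO replicates 1, 2 and 3. The lowest LGK-974 library lay above the highest DMSO library, and the group means were 241 ± 34.0 and 154 ± 14.4 CPM (SD, n = 3 each). Its fitted log2 ratio was 0.64 (standard error 0.187), a 1.56-fold difference, with an adjusted p-value of 0.368 by edgeR, 0.0424 by DESeq2 and 0.103 by limma-voom. Without DMSO replicate 1 it was 0.61, and over all settings tried it lay between 0.51 and 0.80. In simulated counts, 80 of 219 DESeq2 calls were false with the dispersions (spread between libraries) fitted by edgeR, and 19 of 211 with a dispersion of 0.05. The simulations used the 20094 filtered genes and log2 changes of 2, while DESeq2 was run here on all 36047 genes. They therefore give no rate of false calls for Hsp90aa1.

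Hspa1a and Hspa1b are neighbouring genes without introns that encode the stress-inducible HSP70. They lie on chromosome 17 at 34969190 to 34972156 and 34956436 to 34959238 (both on the minus strand). Hspa1a was measured at 6.71, 10.3 and 8.55 CPM with LGK-974 and at 5.28, 6.19 and 6.39 CPM with DMSO, so that LGK-974 replicate 1 was only just above the highest control. The fitted log2 ratio was 0.52 (standard error 0.225, adjusted p = 0.368 by edgeR) and 0.45 without DMSO replicate 1, with 0.33 to 0.68 over all settings tried. Hspa1b was measured at 11.1, 11.4 and 17.4 CPM with LGK-974 and at 6.86, 9.81 and 9.24 CPM with DMSO. Here LGK-974 replicate 3 was the highest and DMSO replicate 1 the lowest library. On the log2 scale the difference was 0.62 (standard error 0.244, adjusted p = 0.368 by edgeR) and 0.50 without DMSO replicate 1, with 0.35 to 0.78 over all settings tried. The division of reads between these 2 genes is uncertain, since 1873 of the 2937 stretches of 31 bases in the Hspa1a transcript, or 63.8%, also occur in Hspa1b. Their sum does not depend on that division. It was 17.8, 21.7 and 25.99 CPM with LGK-974 and 12.1, 16.0 and 15.6 CPM with DMSO, again without overlap, with a log2 ratio of 0.58 ± 0.195 (± standard error, adjusted p = 0.368 by edgeR). Exons of Hspa1a also share 564 bases with Gm20481 on the other strand, which held at most 25.5 counts in any library.

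Hspa8 encodes the constitutive HSC70, the most abundant HSP70 of unstressed cells, and lies on chromosome 9 from 40800984 to 40810087 (plus strand). Its values were 832, 912 and 880.4 CPM with LGK-974 and 605, 743 and 789 CPM with DMSO. The groups did not overlap, but the gap between them was smaller than the spread of the DMSO libraries, and the log2 ratio was 0.30 (standard error 0.215, adjusted p = 0.499 by edgeR), 0.21 without DMSO replicate 1 and 0.48 without DMSO replicate 3. Dnajb1, the HSP40 that feeds clients to HSP70, lies on chromosome 8 from 83608193 to 83612653 (plus strand). It was measured at 9.02, 9.07 and 10.2 CPM with LGK-974 and at 7.87, 8.42 and 7.32 CPM with DMSO. The log2 ratio of the groups was 0.26 (standard error 0.173, adjusted p = 0.466 by edgeR), and 0.28 without DMSO replicate 1, with 0.17 to 0.42 over all settings tried. In Dnajb1 LGK-974 replicate 1 was the lowest of its group and still above DMSO replicate 2, the highest control.

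Bag3, which joins HSP70 to the small heat shock proteins, lies on chromosome 7 from 128523616 to 128546981 (plus strand) and was not separated. Its values were 147, 198 and 173 CPM with LGK-974 and 140.3, 184 and 258 CPM with DMSO. The LGK-974 libraries lay within the range of the DMSO libraries, whose highest value was that of replicate 3. Its fitted log2 ratio was −0.17 (standard error 0.256, adjusted p = 0.749 by edgeR), −0.34 without DMSO replicate 1 and 0.20 without DMSO replicate 3, so its sign rested on that library.

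**Figure D2:**
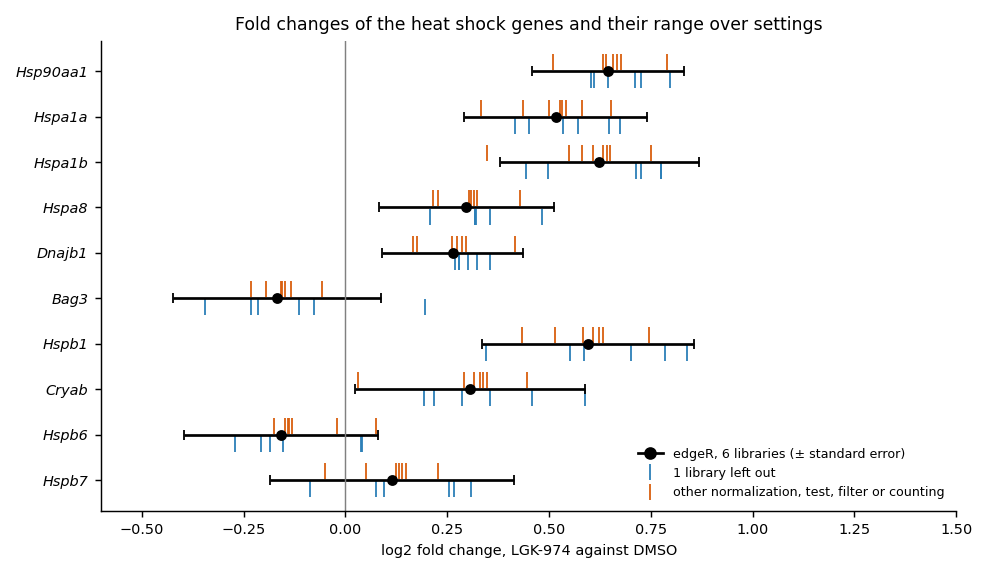
Log2 ratio of the LGK-974 to the DMSO group (x axis) for the 10 genes by edgeR with all 6 libraries (black, bars are 1 standard error), with 1 library left out (blue ticks) and with another normalization, test, filter or counting unit (orange ticks). Hsp90aa1 stays between 0.51 and 0.80, while Bag3, Hspb6 and Hspb7 lie on both sides of 0.

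The 4 small heat shock protein genes overlapped between the groups, and none was past the threshold by any of the 3 tools. Hspb1 (Hsp25 in mice), the stress-inducible and widely expressed member that protects actin filaments, lies on chromosome 5 from 135887919 to 135889563 (plus strand). It was measured at 203, 116 and 149.8 CPM with LGK-974 and at 93.4, 130.5 and 86.4 CPM with DMSO. LGK-974 replicate 2 lay below DMSO replicate 2, and the other 4 libraries were separated. On the log2 scale the difference was 0.59 (standard error 0.261, adjusted p = 0.368 by edgeR) and 0.55 without DMSO replicate 1. LGK-974 replicate 1 held the highest value, and without it the difference was 0.35, while without LGK-974 replicate 2 it was 0.84.

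Cryab, the chaperone of desmin and titin, lies on chromosome 9 from 50751325 to 50756636 (plus strand). Its values were 1125, 894 and 1048 CPM with LGK-974 and 663, 1132 and 686 CPM with DMSO. DMSO replicate 2 was the highest of all 6 libraries and the other 2 controls were the lowest. Its fitted log2 ratio was 0.31 (standard error 0.282, adjusted p = 0.587 by edgeR), 0.19 without DMSO replicate 1, 0.59 without DMSO replicate 2 and 0.032 by limma-voom. The limma-voom fit weighted DMSO replicate 2 by 3.49, against 0.289 for DMSO replicate 1 and 0.663 for DMSO replicate 3. Exons of Cryab share 252 bases with its divergent neighbour Hspb2 on the other strand, which held at most 1033 counts in any library.

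Hspb6, which is phosphorylated on adrenergic stimulation, and Hspb7, which binds cardiac filamin and titin, overlapped widely between the groups. Hspb6, on chromosome 7 from 30552178 to 30555443 (plus strand), was measured at 606, 764 and 499 CPM with LGK-974 and at 631, 679 and 776 CPM with DMSO. On the log2 scale the difference was −0.16 (standard error 0.238, adjusted p = 0.746 by edgeR). Without DMSO replicate 1 it was −0.21, and it was 0.038 without DMSO replicate 3 and 0.040 without LGK-974 replicate 3. Hspb7, on chromosome 4 from 141420779 to 141425311 (plus strand), was measured at 1864, 1974 and 1558 CPM with LGK-974 and at 1121, 1988 and 1879 CPM with DMSO. The one low value was that of DMSO replicate 1. On the log2 scale the difference was 0.11 (standard error 0.299, adjusted p = 0.865 by edgeR) and −0.086 without that library.

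Levels of different genes were compared as TPM, which is scaled to transcript length. In the order of their mean TPM over the 6 libraries the genes were Cryab, Hspb7, Hspb6, Hspa8, Hspb1, Hsp90aa1, Bag3, Hspa1b, Dnajb1 and Hspa1a. Cryab had 755 to 2613 TPM and was above Hspb7 (285 to 964 TPM) in all 6 libraries. Hspb6 (367 to 685 TPM) was above Hspa8 (191 to 683 TPM) in all 6, Hspa8 above Hspb1 (86.5 to 338 TPM) in all 6, and Bag3 (38.8 to 116 TPM) above Hspa1b (1.72 to 10.7 TPM) in all 6. The other neighbours were not ordered beyond their spread, since Hspb7 was above Hspb6 in 5 libraries, Hspb1 above Hsp90aa1 in 4, Hsp90aa1 above Bag3 in 5, Hspa1b above Dnajb1 in 5 and Dnajb1 above Hspa1a in 5. Hspa1a, Hspa1b and Dnajb1, with 1.25 to 10.7 TPM, stood below the other 7 genes in every library. These values add all transcripts of a gene. In DMSO replicate 1, 58.7% of the counts of Hspb6 lay on a transcript not annotated as coding, described below. There Hspb6 had 367 TPM, against 191 for Hspa8 and 285 for Hspb7. Its place in that library is therefore not that of its coding transcript, whose order was not compared.

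The transcripts that held these counts differed in DMSO replicate 1. The coding transcript of Hspb6 (Hspb6-201) begins at position 30553268, directly after the downstream window shown above. It held 98.1 to 99.7% of the counts of the gene in 5 libraries and 41.2% in DMSO replicate 1. There 58.7% lay on Hspb6-202, a transcript of 1298 bases not annotated as coding, which begins at position 30552524 near the upstream start and shares 1094 bases with Hspb6-201. It held 0.114 to 1.80% in the other libraries. Counted on coding transcripts alone, Hspb6 had 595, 759.7 and 497 CPM with LGK-974 and 260.0, 674 and 772 CPM with DMSO. On this count, chosen after the shares were seen, its log2 fold change was 0.074, of the opposite sign, with an adjusted p-value of 0.927 by edgeR.

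DMSO replicate 1 also stood apart in Cryab and Hsp90aa1. The intron-retaining Cryab-204 held 17.3% of the counts of Cryab in DMSO replicate 1 and 0.0242 to 1.96% elsewhere, and coding transcripts gave Cryab 1103, 884 and 1045 CPM with LGK-974 and 549, 1131 and 685 CPM with DMSO. Transcripts not annotated as coding held 38.6% of Hsp90aa1 in DMSO replicate 1 and 16.9 to 24.4% elsewhere. On coding transcripts alone, Hsp90aa1 had 192, 167 and 209.6 CPM with LGK-974 and 87.8, 138 and 124 CPM with DMSO, again without overlap. The log2 fold changes on coding transcripts were 0.29 for Cryab and 0.63 for Hsp90aa1. Copies of Hspa8, Hsp90aa1 and Hspb1 elsewhere in the genome share many stretches of 31 bases with them, but the genes with over 100 shared stretches held at most 1.07%, 2.69% and 0.724% of the summed counts of copies and gene in any library.

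**Figure D3:**
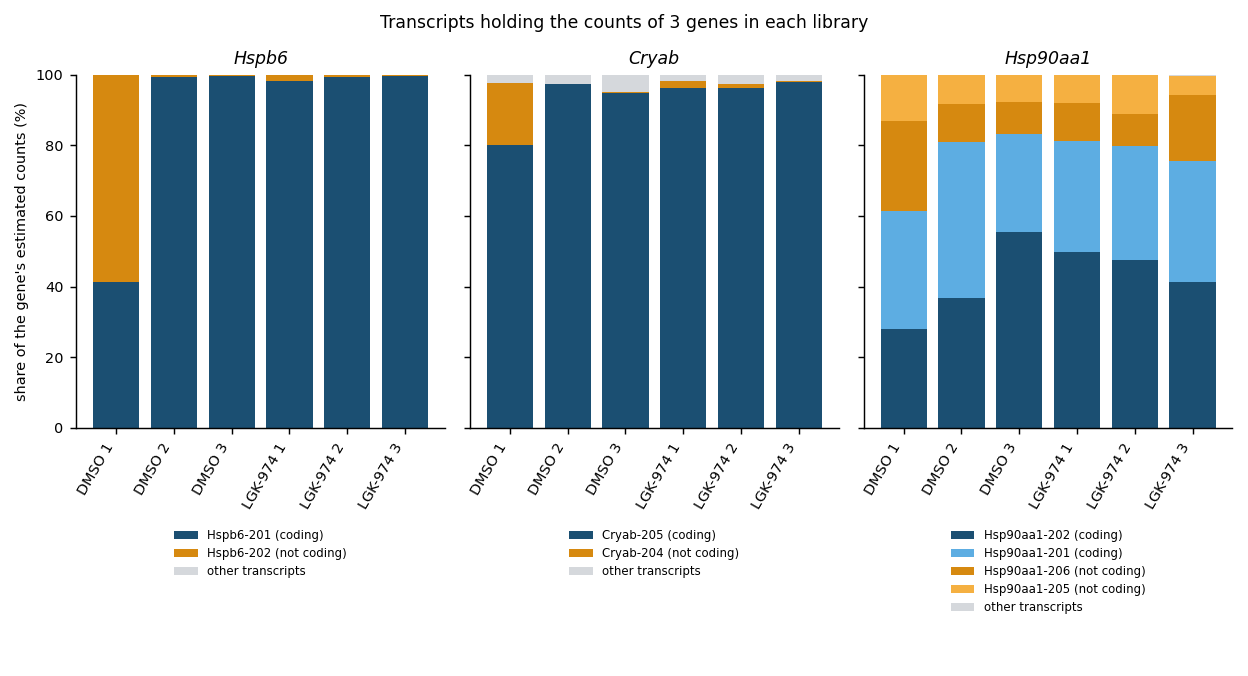
Share of the estimated counts of Hspb6, Cryab and Hsp90aa1 held by each transcript (y axis, percent) in each of the 6 libraries, with coding transcripts in blue and others in orange. DMSO replicate 1 has 58.7% of Hspb6 on Hspb6-202 and 17.3% of Cryab on Cryab-204, above every other library.

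Markers of several cell types moved with the groups. Of 15 cardiomyocyte markers, 14 had a negative log2 fold change (median −0.42) and 1, Actc1, a positive one. All 10 leukocyte markers had a positive one (median 0.92), with summed levels of 456 to 595 CPM under LGK-974 and 199.9 to 284 CPM under DMSO, and so had all 10 fibroblast markers (median 0.78, with sums of 4089 to 7727 and 1955 to 2872 CPM). Of the fibroblast markers, Col1a1, Col1a2, Col3a1, Postn and Fn1 did not overlap between the groups, with log2 fold changes of 1.07 to 1.77. Pdgfra (0.13), Dcn (0.0054), Lum, Thy1 and Dpt overlapped. By edgeR's test 0 of these 35 markers had an adjusted p-value under 0.05, 15 had an unadjusted p-value under 0.05, and DESeq2 called 13 of them. Endothelial and smooth muscle markers had medians of 0.021 and −0.074. Skeletal muscle markers summed to 6.06 to 9.85 CPM under LGK-974 and 4.74 to 14.2 CPM under DMSO. In such tissue, fewer cells of a type and less RNA per cell cannot be told apart, and the part of the cell mixture in the heat shock values was not tested.

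Each gene was also set against the cardiomyocyte markers of its own library, as its log2 CPM minus the mean log2 CPM of the 15 markers. The 15 markers had a mean log2 CPM of 10.4 with LGK-974 and 10.7 with DMSO, so this scale adds 0.31 to the group difference of every gene. All 10 genes had a positive difference on it, from 0.13 for Hspb6 to 0.95 for Hsp90aa1, as did 65.9% of all tested genes and 81.6% of those of at least 5 CPM, so that the sign alone says little about these genes. With all 6 libraries, Hspb6 and Bag3 were negative by edgeR on the CPM scale and positive on this one. The groups did not overlap for 4 of the 10, Hsp90aa1, Hspa1a, Hspa1b and Hspa8, against 17.1% of all tested genes and 27.5% of those of at least 5 CPM. Each of the 4 had p = 0.1 in a two-sided exact permutation test, the smallest p-value that 3 libraries against 3 can give. For Hspa8 the values were −0.55, −0.93 and −0.39 with LGK-974 and −1.21, −1.22 and −1.28 with DMSO, so that the controls lay close together. For Cryab they were −0.12, −0.95 and −0.14 with LGK-974 and −1.08, −0.62 and −1.48 with DMSO, a difference of 0.65 (exact permutation p = 0.2). Hspb1 differed by 0.89 and Dnajb1 by 0.56 (exact permutation p = 0.2 for both), Hspb7 by 0.46 (exact permutation p = 0.2), and Hspb6 (0.13, exact permutation p = 0.3) and Bag3 (0.18, exact permutation p = 0.4) had the smallest differences. None of these p-values can pass 0.05, with or without adjustment over the 10 genes.

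**Figure D4:**
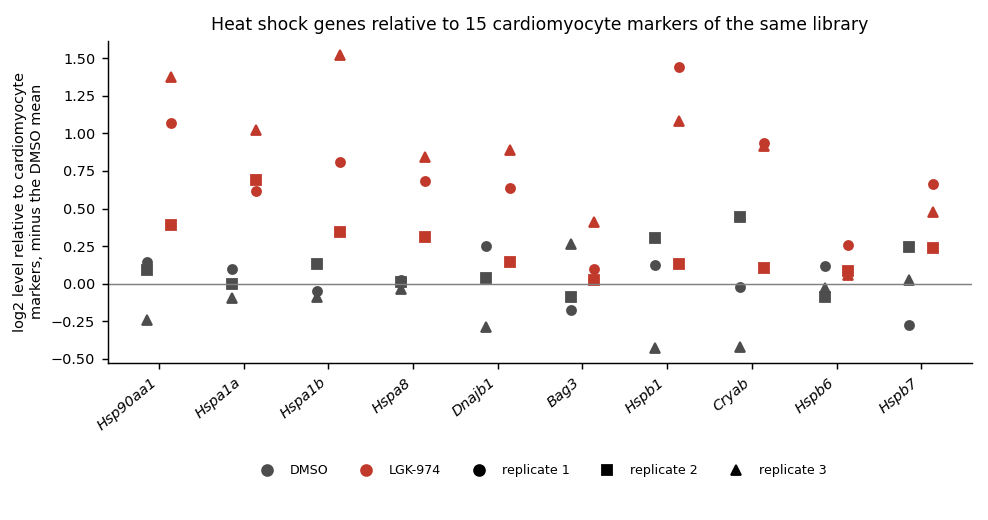
Log2 level of each gene relative to the mean of 15 cardiomyocyte markers in the same library, shown as the difference from the DMSO mean (y axis), for 3 DMSO (grey) and 3 LGK-974 (red) libraries. Hsp90aa1, Hspa1a, Hspa1b and Hspa8 are separated, and Hspb6 and Bag3 lie close to the DMSO values. The scale adds 0.31 to the group difference of every gene.

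The wider chaperone network was read in lists by function, which were also chosen with earlier results of these data known. The 10 genes were counted into these lists. By edgeR's test 0 genes of any list had an adjusted p-value under 0.05. Of each list the 2 other genes with the smallest p-values are named, so they were picked by their values in these data. The counts below stand against 6.26% of all tested genes higher at an unadjusted p-value under 0.05. Separated upwards (every LGK-974 above every DMSO library) were 10.7% of all tested genes and 17.1% of those of at least 5 CPM. A positive log2 fold change was found for 40.5% and 55.3% of them by edgeR. All 9 HSP70 and HSP110 genes of the cytosol had a positive log2 fold change by edgeR and by DESeq2. By limma-voom 6 of the 9 had one, and Hspa2, Hspa4l and Hspa14 were negative. By edgeR these lay within their standard error of 0, at 0.054 (standard error 0.188), 0.0032 (standard error 0.150) and 0.039 (standard error 0.184). Hspa1a and Hspa1b, between which the division of reads is uncertain, count as 2 of the 9. The median of the 9 by edgeR was 0.27 (0.48 without DMSO replicate 3). Of the 9, 2 had an unadjusted p-value under 0.05, and 5 were separated upwards. Hsph1, the HSP110 that acts as nucleotide exchange factor of HSP70, was measured at 34.6, 34.6 and 45.7 CPM with LGK-974 and at 23.3, 22.9 and 24.5 CPM with DMSO. Its fitted log2 ratio was 0.70 (standard error 0.161, adjusted p = 0.368 by edgeR and 0.0501 by DESeq2), above the values of all 10 genes. Hspa4, a relative of Hsph1, was at 0.27 (standard error 0.161).

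Of 14 genes of HSP90 and its co-chaperones, 10 had a positive and 4 a negative log2 fold change (median 0.14, and 0.31 without DMSO replicate 3), 2 had an unadjusted p-value under 0.05, both positive, and 4 were separated upwards. Stip1, which bridges HSP70 and HSP90, was measured at 78.8, 71.5 and 92.0 CPM with LGK-974 and at 36.1, 56.2 and 53.9 CPM with DMSO. The fitted log2 ratio was 0.73 (standard error 0.212, adjusted p = 0.368 by edgeR). Ppid, a cyclophilin of the HSP90 complex, had one of 0.34 (standard error 0.152). The constitutive Hsp90ab1 was at 0.21 and overlapped between the groups, and the glucocorticoid-responsive Fkbp5 had the most negative value of the list, −0.47 (both named after their values were seen).

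Among 10 J-domain genes the median was 0.047 (0.23 without DMSO replicate 3 and −0.013 without DMSO replicate 1). Of the 10, 2 were separated upwards and 1, Dnaja1, had an unadjusted p-value under 0.05. Dnaja1, another partner of HSP70, had group means of 100.3 ± 7.38 CPM for LGK-974 and 76.8 ± 5.46 CPM for DMSO (± SD over 3 libraries). On the log2 scale the difference was 0.39 (standard error 0.152), and that of Dnajc8 was 0.15. Among 9 BAG and other HSP70 partner genes the median was 0.016, which was 0.24 without DMSO replicate 3 and −0.053 without DMSO replicate 1. Of the 9, 1 had an unadjusted p-value under 0.05, that of Bag2, and 2 were separated upwards. Bag2, an inhibitor of the ubiquitin ligase CHIP, had means of 18.7 ± 0.942 and 12.6 ± 3.72 CPM (± SD over 3 libraries). On the log2 scale Bag2 was at 0.57 and St13, another HSP70 partner, at 0.20. The small heat shock protein list had a median of 0.11 (−0.086 without DMSO replicate 1) with 0 of 7 genes separated, and Hspb8, the partner of BAG3, and Hspb3 were at 0.27 and −0.15, the first negative under limma-voom and the second positive without LGK-974 replicate 3 or DMSO replicate 3.

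Of the 13 chaperonin and prefoldin genes found, which fold actin and tubulin, 9 had a positive log2 fold change (median 0.22, and 0.39 without DMSO replicate 3 and 0.082 by limma-voom) and 4 were separated upwards. Cct3 was at 0.43 on the log2 scale (standard error 0.156) and Cct5 at 0.35 (standard error 0.176). The 11 mitochondrial chaperone genes had a median of −0.066, which was 0.10 without DMSO replicate 3, with 4 positive and 7 negative and 0 separated upwards. Their smallest p-values were those of Clpx (−0.55, standard error 0.262) and Clpb (−0.32, standard error 0.165), and Clpb was lower in every LGK-974 library than in every DMSO library. Among 8 heat shock factors and regulators the median was −0.023, which was 0.13 without LGK-974 replicate 3. Hsf1 itself was at 17.5, 21.9 and 22.5 CPM with LGK-974 and 14.9, 15.2 and 23.2 CPM with DMSO, with overlap (log2 fold change 0.22, standard error 0.215, named after its values were seen). The smallest p-value of this list was that of Serpinh1 (HSP47), which is no cytosolic protein but the collagen chaperone of the endoplasmic reticulum. Its means were 291 ± 107 CPM for LGK-974 and 155 ± 42.2 CPM for DMSO (± SD over 3 libraries), and its log2 fold change was 0.91. The next was Hsf5 (−2.21), whose highest value of 1.51 CPM was in DMSO replicate 1.

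**Figure D5:**
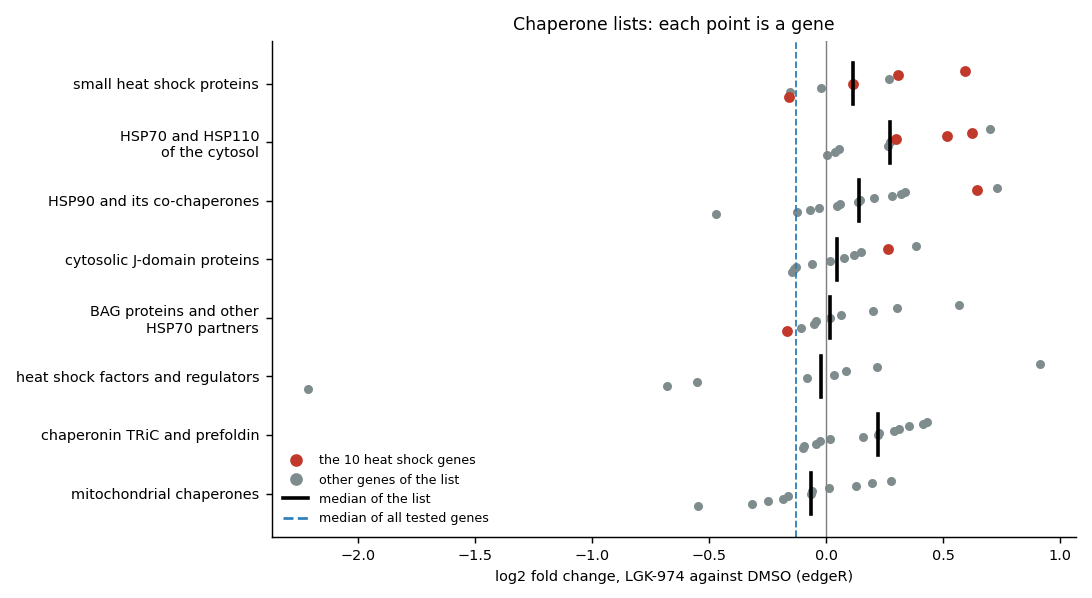
Log2 ratio of the LGK-974 to the DMSO group by edgeR (x axis) for each gene of 8 chaperone lists, with the 10 heat shock genes in red, list medians in black and the median of all tested genes as a dashed line. All 9 HSP70 and HSP110 genes lie above 0 in this fit (6 of 9 by limma-voom), with Hspa4l, Hspa14 and Hspa2 close to 0. The mitochondrial chaperones lie on both sides.

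Genes with the most similar pattern over the 6 libraries were sought for Cryab, Hspb1 and Hspa1a, by the root mean square distance between log2 CPM profiles centred on their means, among 8127 genes with a mean of at least 10 CPM. Nearest to Cryab were Ammecr1, Golt1b and S100a6, at distances of 0.0754, 0.0842 and 0.0918, where the profile of Cryab itself varied by 0.318 around its mean. Nearest to Hspb1 were S100a4, Flnc and Hbegf, at distances of 0.122, 0.136 and 0.136. Flnc, which encodes filamin C of the Z-disc, had 888, 630.0 and 831 CPM with LGK-974 and 449.8, 708 and 496 CPM with DMSO, so that as in Hspb1 and Cryab DMSO replicate 2 lay above the other controls. Nearest to Hspa1a were Rbbp5, Arl14ep and Abhd17c, at distances of 0.0774, 0.0813 and 0.0819. None of the nearest genes was one of the 10, of which Hspa1a and Dnajb1 have means under 10 CPM and were not among the genes searched.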

How the data were processed

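RNA of the infarct area of mouse hearts was sequenced by the authors in 6 libraries after depletion of ribosomal RNA and library preparation with a capture kit. The authors quantified transcripts with Kallisto on Ensembl transcripts of GRCm38 and deposited, per library, an estimated count (reads of several transcripts divided between them) and a TPM value (per transcript length, scaled to the same total in every library) for each of 118489 transcripts. The version of Kallisto, trimming and strand setting are not given in the sources used here.

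Here 98.6% of transcripts were joined to 36047 genes of GENCODE M21 (GRCm38), and the estimated counts of all transcripts of a gene were added and rounded. TPM was summed per gene and used only to compare genes. Depth was 41579787 to 80398211 counts per library. The 10 members and all lists were chosen with earlier results of these data known. Named list genes were the 2 non-members of each list with the smallest p-values, with the exceptions stated. Of the lists, Cct6a was not found. Groups and replicate numbers are those of the sample titles, which do not name the animals, so p-values measure the spread between these libraries.

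Groups were compared in edgeR 4.0.16 (R 4.3.3) by the quasi-likelihood method with TMM and treatment as the only factor, on genes that reached 10 counts in 3 or more libraries, with Benjamini-Hochberg adjustment (threshold 0.05). Standard errors are the log2 fold change divided by the root of its F statistic. Single values used two-sided exact permutation tests, with 0.5 CPM added before the log. Alternatives were DESeq2 1.42.0 and its size factors, limma-voom 3.58.1 with sample weights, no filter, a replicate block, libraries left out, mitochondrial genes left out, Hspa1a and Hspa1b summed, and coding transcripts alone. The limma-voom sample weights ran from 0.289 for DMSO replicate 1 to 3.49 for DMSO replicate 2, so its values lean on the latter among the controls. The tests were tried on simulated counts of this comparison, 20094 genes of which 200 were altered by 2 on the log2 scale. With the dispersions fitted by edgeR, recovery was 58% for edgeR (11 of 127 calls false), 69.5% for DESeq2 (80 of 219 false) and 54% for limma-voom (6 of 114 false). With a dispersion of 0.05 for every gene it was 98% (10 of 206 false), 96% (19 of 211) and 98.5% (11 of 208). The log2 fold changes of the 10 genes were smaller, −0.17 to 0.64, and recovery of changes of that size was not tested. Python 3.11.15, SciPy 1.17.1 and matplotlib 3.10.9 made the tables and figures.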

Additional observations from a re-analysis of the deposited data

How the results depend on the processing

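With edgeR and all 6 libraries 0 genes were called. The count was 289 with DESeq2, 1206 with edgeR without a filter on low counts, 45 with limma-voom with sample weights, and 0 to 2 with 1 library left out, the 2 being without DMSO replicate 1. Of the 10 heat shock genes, 1 (Hsp90aa1) was called with DESeq2, and 0 under every other setting, including 0 to 0 with 1 library left out. The sign of 7 of the 10 genes was kept throughout. Hspb7 was at −0.049 with limma-voom and between −0.086 (without DMSO replicate 1) and 0.31 with 1 library left out. Hspb6 was at 0.074 on coding transcripts alone, at 0.038 without DMSO replicate 3, and between −0.27 and 0.040 (without LGK-974 replicate 3) with 1 library left out. With 1 library left out, Bag3 lay between −0.34 and 0.20 (without DMSO replicate 3). Of other chaperone genes, Hspb8 was at −0.033 with limma-voom, and Hspb3 at −0.42 with limma-voom and, with 1 library left out, between −0.34 and 0.030 (without DMSO replicate 3), with 0.0039 without LGK-974 replicate 3. The cause was not tested. The median of the 10 genes lay between 0.20 (limma-voom) and 0.44 (no filter). List medians changed sign for the BAG list (−0.060 to 0.24), the J-domain list (−0.013 to 0.23), the heat shock factors (−0.10 to 0.13), the mitochondrial chaperones (−0.17 to 0.10) and the small heat shock proteins (−0.086 to 0.29), and stayed positive for HSP70 and HSP110 (0.21 to 0.48), HSP90 (0.066 to 0.31) and the chaperonins (0.082 to 0.39). Except in the list of heat shock factors, the highest of these medians were those without DMSO replicate 3. The replicate numbers occur in both groups but pair no animals, and same-numbered libraries did not all deviate together. Their correlations were 0.487, −0.062 and 0.315 for numbers 1, 2 and 3, against −0.514 to 0.157 between libraries of different numbers. Those of numbers 1 and 3 thus lay above every pair of different numbers. With the number as a replicate block, 0 genes and 0 of the 10 were called, at a median of 0.33. Depth limits mainly Hspa1a, Hspa1b and Dnajb1, with 210.2 to 1114 counts per library.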
